A study of Mus musculus with 6 samples.

Results

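Kinesins are motor proteins that move along microtubules or take them apart, using ATP. The genes described here are those with a mouse symbol of Kif followed by a digit, and every probe set that the platform annotation gives such a symbol alone was taken. That gave 37 of the 18194 genes with such a probe set, and 99 of the 45101 probe sets on the array. Of these, 24 probe sets belong to 11 kinesins known from mitosis and cytokinesis (Kif2c, Kif4, Kif11, Kif14, Kif15, Kif18a, Kif18b, Kif20a, Kif20b, Kif22 and Kif23), and 75 belong to 26 other kinesins. In dividing cells, mitotic kinesins push the spindle poles apart, hold and shorten microtubules at chromosomes and build the midzone at which the cell splits. The other kinesins mostly carry vesicles, organelles, mRNA and ciliary cargo in cells that are not dividing, although Kif2a and Kif24 of that set also act at spindle poles or centrioles.

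The cells were C3H10T1/2, a mouse mesenchymal line that can take on the adipocyte fate. The treated group received 50 ng/ml BMP4, a secreted bone morphogenetic protein, while proliferating, and the control group received none. Total RNA of both groups was taken after confluence and hybridised to single-colour arrays, 3 per group. Whether replicate arrays came from different cultures is not said in the labels. The p-values here set the group difference against a spread estimated from replicate arrays, which may be technical only. In bulk RNA, more dividing cells and more transcript per cell cannot be told apart.

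Values are linear probe set signals as scaled by the authors, with a trimmed mean of 150 on each of the 6 arrays. The number of arrays limits their precision. The highest signal of 27 probe sets for bacterial genes, which mouse RNA lacks, ranged from 23.5 to 29.1 over BMP4 arrays and from 16.6 to 21 over controls, and 29.1 served as the mark of background. Of 9 mesenchymal markers 0 were under it on all arrays, and vimentin (Vim) stood at a signal of 10449 ± 616 with BMP4 and 8948 ± 1041 without (SD, n = 3). Of 3 haematopoietic markers, Ptprc and Cd3e stood under 29.1 on every array and Cd68 above it on every array (31.3 to 50.4), with summed signals of 59.7 to 72.6 with BMP4 and 48.7 to 65.2 without. Of 3 endothelial markers, Pecam1 was under background on every array, while Cdh5 (19.9 to 45.5) and Kdr (29.0 to 72.7) lay on both sides of it, and the sums were 66.0 to 115 and 84.8 to 106. Of 4 epithelial markers, Epcam (an x_at probe set, 332 ± 120.5 and 381 ± 40.1) and Krt8 (80.1 ± 13.9 and 70.0 ± 13.7; SD, n = 3) were above background on every array, and Cdh1 and Krt18 under it on every array. Of 6 neuronal markers 4 were under background on every array, and their summed signal was 148 to 157 with BMP4 and 126 to 128 without. The part of these markers in the results was not tested.

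Promoters of 4 mitotic kinesins and of Kif24 are shown first. They were picked as examples that were called higher and hold a match near the start. Having been picked on both, they cannot show whether motif and rise go together, which was not tested. Many genes that peak in mitosis carry a CCAAT box, bound by NF-Y, and close to the start a cell cycle homology region, bound by the DREAM and MuvB complexes. RefSeq promoter windows (GRCm38.p6) reach from 250 bases before to 50 bases after a start, and held 10 of the 11 mitotic and 21 of the 26 other kinesin genes. The stretches below run from base -80 to base 12 around the listed start, on the gene's strand. Capitals mark TTTGAA or TTCGAA, core forms of the homology region, and CCAAT, each on either strand, so that TTCAAA and ATTGG are the same letters read from the other strand.
Kif22 (chr7:127042409-127042500, minus strand): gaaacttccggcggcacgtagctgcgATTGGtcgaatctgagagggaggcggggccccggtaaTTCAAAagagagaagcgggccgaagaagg
Kif11 (chr19:37376302-37376393, plus strand): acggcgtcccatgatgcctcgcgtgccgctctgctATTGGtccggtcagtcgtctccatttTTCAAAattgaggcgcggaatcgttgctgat
Kif23 (chr9:61946788-61946879, minus strand): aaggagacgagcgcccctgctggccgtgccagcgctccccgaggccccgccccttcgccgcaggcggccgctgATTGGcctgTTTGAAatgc
Kif18b (chr11:102925113-102925204, minus strand): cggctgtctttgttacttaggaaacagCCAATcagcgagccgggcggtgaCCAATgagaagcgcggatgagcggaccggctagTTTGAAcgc
Kif24 (chr4:41464837-41464928, minus strand): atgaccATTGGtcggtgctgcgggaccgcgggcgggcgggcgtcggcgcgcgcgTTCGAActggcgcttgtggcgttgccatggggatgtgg

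In Kif22 and Kif11 an inverted CCAAT was followed by an inverted TTTGAA, at bases -17 to -12 and -19 to -14. In Kif23 and Kif18b the TTTGAA lay just past the start, at bases 3 to 8 and 4 to 9. Kif24, a member of the other set that rose, held TTCGAA at bases -26 to -21. TTCGAA was present in 0 mitotic windows, 1 window of other kinesins (4%) and 1.56% of all. TTTGAA on either strand was present in 9 of 10 mitotic windows (90%), in 3 of 25 windows of other kinesins (12%) and in 17.9% of all 32851 windows. Those 3 belong to Kif26b (bases -9 to -4), which was not called (limma adjusted p = 0.0827), and to Kif1a and Kif27, both under background. All these counts cover the whole window. In Kif14 (bases -228 to -223) and Kif2c (bases -103 to -98) the only TTTGAA match lay far from the start. Kif18a, which rose, had no match to TTTGAA in its window. CCAAT was present in 6 mitotic windows (60%), in 9 of the others (36%) and in 37.4% of all. Both kinds of motif, with TTCGAA counted, occurred in 6 mitotic windows, 3 other kinesin windows (12%) and 7.52% of all. TTGGCGC, a core form of E2F sites, was in 2 mitotic windows (Kif15 and Kif18a), 0 other kinesin windows and 2.45% of all. These matches describe letters in a window, and binding was not measured.

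Mitotic kinesins were higher in BMP4-treated cells. All 9 mitotic genes bright enough to test rose by their brightest probe set, by 1.45-fold (Kif18b) to 2.25-fold (Kif23), and on each of them the 3 BMP4 arrays lay wholly above the 3 control arrays. Over probe sets, 14 of the 16 tested were higher and 0 lower (limma, Benjamini-Hochberg adjusted p under 0.05 over all 27022 probe sets; at an unadjusted p under 0.05 also 14 and 0). Over all probe sets tested, 4.20% were higher and 4.91% lower by the same rule, and the groups did not overlap, with BMP4 above, at 15.0%. The median log2 change was 0.74 for the 16 mitotic probe sets and 0.03 for all. None of the 16 passed the filter on low signal through 1 group alone. The remaining 8 mitotic probe sets, among them the only ones of Kif14 and Kif15, were under background on all 6 arrays and were not tested.

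**Figure D1:**
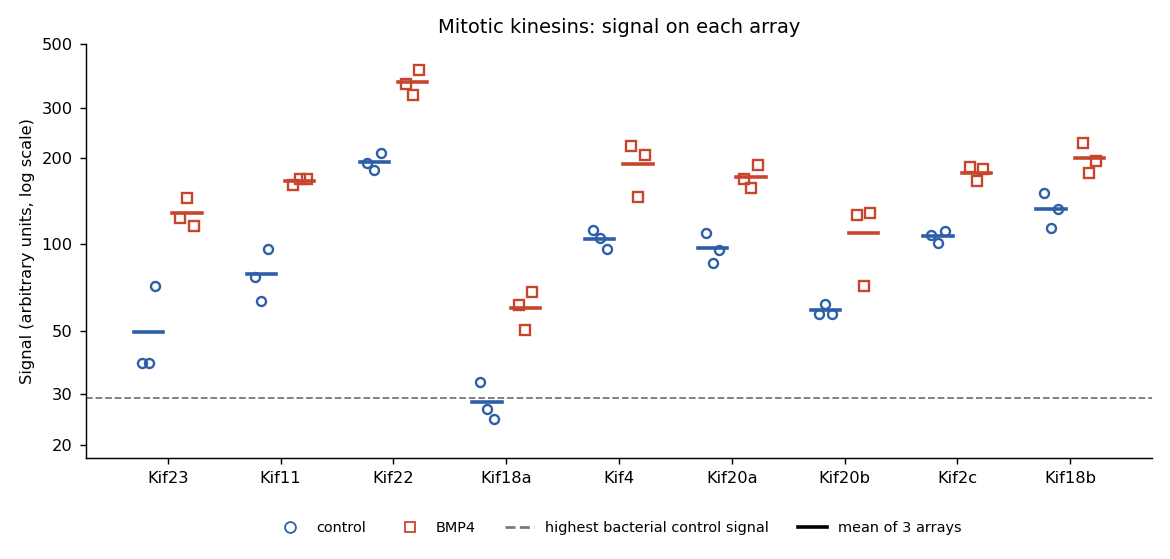
Signal of the brightest tested probe set of each mitotic kinesin on each array (log axis, arbitrary units), with control arrays as circles, BMP4 arrays as squares and the mean of 3 arrays as a bar. In each gene the squares lie above the circles, and in Kif18a the control circles lie around the dashed line, the highest bacterial control signal of 29.1.

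The motor that sets up the bipolar spindle, Kif11, slides antiparallel microtubules apart. Its brightest probe set read 161.3, 168.8 and 168.8 with BMP4 against 76.8, 63.3 and 96.3 without. The log2 difference was 0.96 ± 0.14 (SE, limma adjusted p = 0.00121), and the groups were far apart, with close agreement among the BMP4 arrays. The other Kif11 probe sets gave 0.76 (adjusted p = 0.00816) and 0.62 (adjusted p = 0.0183). Kif15, a motor that can stand in for Kif11 at the spindle, had signals of 16.7 ± 9.62 and 10.2 ± 3.84 (SD, n = 3), both under background.

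Chromosome-bound and kinetochore kinesins rose as well. Kif22, a chromokinesin that pushes chromosome arms away from the poles, had signals of 362.7, 333.1 and 407.0 with BMP4 and 192.2, 182.5 and 209.0 without, log2 0.86 ± 0.09 (SE; limma, adjusted p = 0.000179). Another Kif22 probe set gave 1.01 ± 0.17 (adjusted p = 0.00297), while the dimmest, at means of 38.1 and 29.8, gave 0.25 (95% interval -0.16 to 0.65, adjusted p = 0.471). Both Kif22 probe sets that passed are of the s_at or x_at kind, whose probes can match more than 1 transcript, and the dimmest is not. Kif4, a chromokinesin that also works at the midzone with Prc1, read 220.8, 145.9 and 205.7 against 112.2, 105.5 and 96.7, a log2 change of 0.76 ± 0.14 (adjusted p = 0.00705). BMP4 replicate 2 was the lowest of the treated arrays for Kif4, and still above each control.

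Kif2c, which takes microtubules apart at kinetochores to correct faulty attachments, rose on 3 of its 4 tested probe sets. The brightest read 185.5, 166.1 and 182.9 with BMP4 and 108.0, 101.4 and 111.6 without, log2 0.66 ± 0.10 (SE; limma, adjusted p = 0.00201). The others gave 1.05 (adjusted p = 0.000398, an x_at set) and 0.72 (adjusted p = 0.00379). A dim one, at 43.4 ± 1.19 and 41.2 ± 9.10 (SD, n = 3), gave 0.07 (95% interval -0.32 to 0.46, limma adjusted p = 0.865).

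The kinesin-8 pair regulates microtubule length, Kif18a at kinetochores, where it damps chromosome movement, and Kif18b on astral microtubules. Kif18a read 61.6, 50.5 and 68.3 with BMP4 and 33.1, 26.7 and 24.6 without, log2 0.78 ± 0.18 (SE; limma, adjusted p = 0.0178). On 2 of the 3 control arrays it was under background, so its control level is only a bound. Kif18b read 226.3, 177.8 and 195.2 against 151.5, 113.8 and 132.6, the smallest mitotic rise by brightest probe set, at 0.54 ± 0.12 (adjusted p = 0.0203). Its groups did not overlap, with SDs of 24.6 and 18.9, and control replicate 1 came nearest to the treated arrays.

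The kinesin-6 motors of the midzone included the largest mitotic rise. Kif23, which with Racgap1 forms centralspindlin, read 124.1, 145.2 and 116.2 with BMP4 and 38.7, 38.5 and 71.8 without, log2 1.17 ± 0.19 (SE; limma, adjusted p = 0.00302). Control replicate 3 was the highest control, and still under every treated array. Kif20a, which brings the chromosomal passenger complex to the midzone, read 168.6, 157.5 and 189.4 against 109.9, 86.3 and 96.0, a log2 change of 0.73 ± 0.12 (adjusted p = 0.00297). Kif20b, needed for the last steps of cytokinesis, read 126.9, 71.9 and 129.2 against 57.0, 62.2 and 57.4, a log2 change of 0.71 ± 0.19 (adjusted p = 0.0432). BMP4 replicate 2 again stood low, and the Kif20b call was lost in 11 of 17 alternatives, with adjusted p of 0.0558 with a replicate block, 0.133 without BMP4 replicate 1 and 0.140 without BMP4 replicate 3. The Kif11 call at 0.62 was lost when any array but BMP4 replicate 2 or control replicate 3 was left out (adjusted p from 0.0595 to 0.0698). Of the 14 calls, 10, from 6 genes (Kif2c, Kif4, Kif11, Kif20a, Kif22 and Kif23), passed in every alternative in which they were tested. Kif18a missed the threshold when BMP4 replicate 3 (adjusted p = 0.0695), or either of control replicates 2 (0.0618) and 3 (0.0610), was left out, and with no filter on low signal (0.0611). Kif18b missed it when BMP4 replicate 1 (0.0658), or either of control replicates 2 (0.0809) and 3 (0.0557), was left out, and without the intensity trend (0.0696).

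The rise was spread over arrays. Relative to the control mean, the median over the 9 mitotic genes was 0.85, 0.60 and 0.94 on the log2 scale on BMP4 replicates 1, 2 and 3, and between -0.08 and 0.01 on the control arrays. The same medians over the 20 other kinesin genes tested were -0.11, -0.01 and 0.01 with BMP4.

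**Figure D2:**
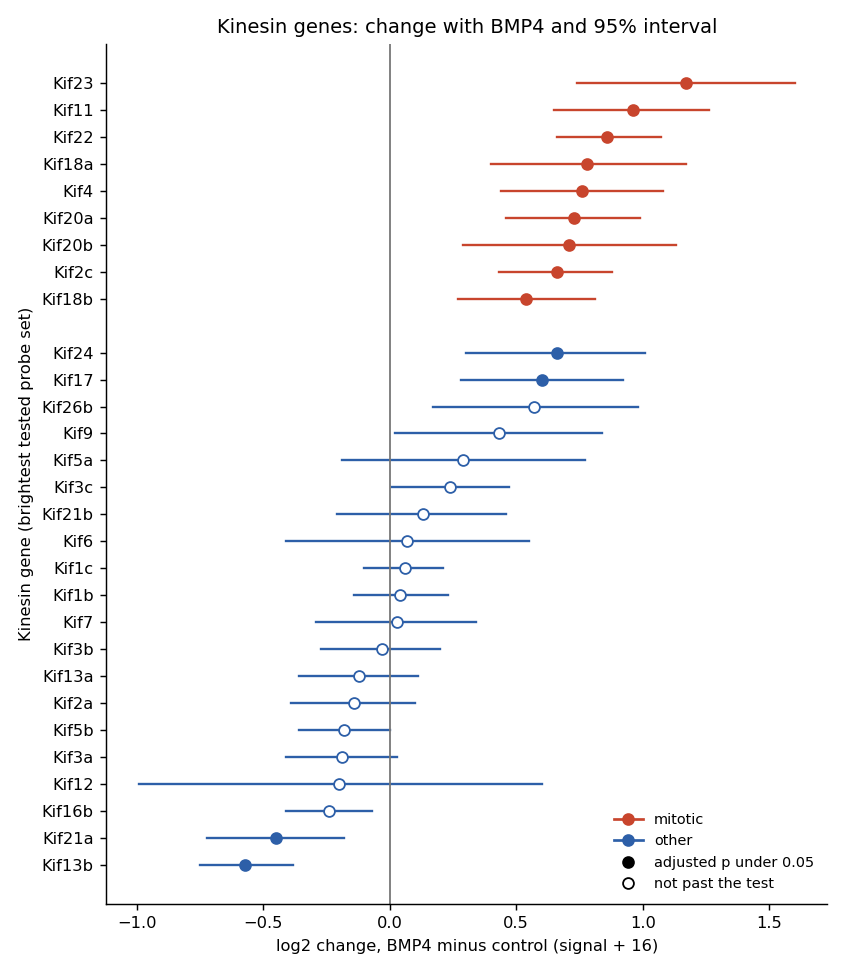
Log2 change of each tested kinesin gene by its brightest probe set (x axis, BMP4 minus control on the log2(signal + 16) scale) with 95% intervals from limma, mitotic genes on top, filled where the adjusted p was under 0.05. The 9 mitotic genes lie between 0.54 and 1.17, and 16 of the 20 other genes are open.

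Other kinesins were called about as often as the array as a whole. Over all 70 tested kinesin probe sets 16 were higher and 3 lower, where 9.12% of all probe sets passed in either direction. Of the 54 other ones 2 were higher and 3 lower (limma adjusted p under 0.05), or 3.70% and 5.56%, near the 4.20% and 4.91% of all probe sets. At an unadjusted p under 0.05 there were 5 and 7. The share of all probe sets or genes at that unadjusted threshold was not counted. The unadjusted counts given here for kinesins and partner lists therefore cannot be set against the whole array. Their median log2 change was 0.00, against 0.03 for all, and 27 values were positive and 27 negative. By brightest probe set 2 of 20 genes were higher (Kif17 and Kif24) and 2 lower (Kif13b and Kif21a), or 10.0% each, against 5.03% and 5.66% of 12966 genes. Of the 49 probe sets not past the test, 47 had a 95% interval within 1 log2 unit of 0 and 32 within 0.5.

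**Figure D3:**
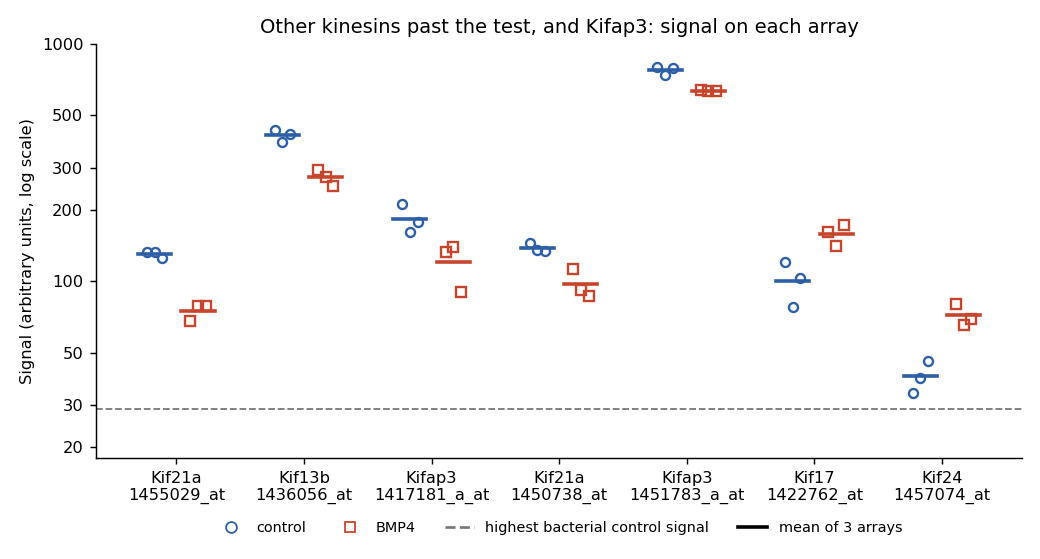
Signal on each array (log axis, arbitrary units) of the other kinesin probe sets past the test and of both Kifap3 probe sets, ordered by log2 change, with control circles, BMP4 squares and the mean of 3 arrays as a bar. Kif21a, Kif13b and Kifap3 squares lie under the circles, and Kif17 and Kif24 squares lie above them.

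The 2 genes that fell were Kif13b and Kif21a, and a role common to them was not tested. Kif13b, a kinesin-3 motor that transports Dlg1 and membrane cargo, read 293.7, 276.2 and 251.7 with BMP4 and 435.8, 387.2 and 416.5 without, log2 -0.57 ± 0.08 (SE; limma, adjusted p = 0.00135). Its other tested probe set, at 28.3 and 31.8, was near background and gave -0.11 (95% interval -0.53 to 0.30, adjusted p = 0.778). Kif21a, a kinesin-4 motor that restrains microtubule growth, fell on both tested probe sets. The stronger one read 67.8, 78.4 and 79.0 against 132.5, 132.4 and 125.8, a log2 change of -0.69 ± 0.12 (adjusted p = 0.00398). The brighter one read 113.1, 91.5 and 86.6 against 144.8, 134.9 and 134.6, a log2 change of -0.45 (adjusted p = 0.0430), and was not past the test when any array but BMP4 replicate 1 was left out (adjusted p of 0.0955 to 0.139). The calls of Kif13b and of the stronger Kif21a probe set held in all 17 alternatives.

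The 2 genes that rose were Kif24 and Kif17, and their called probe sets are 3.70% of those tested, near the 4.20% of all. Both have parts in cilia, but so do Kif3a, Kif3b and Kif7, which were not called. A link of the 2 rises to cilia was not tested. The summed signal of 2 markers of ciliated cells was 44.6 to 106 with BMP4 and 29.5 to 61.3 without. The part of these markers in the values of Kif24 and Kif17 was not tested. Kif24, a kinesin-13 at the mother centriole that holds back cilium formation, read 80.2, 65.7 and 69.4 with BMP4 and 33.7, 39.3 and 46.3 without, log2 0.66 ± 0.16 (SE; limma, adjusted p = 0.0280). Kif17, a kinesin-2 homodimer that moves cargo in dendrites and cilia, read 162.0, 141.0 and 173.0 against 120.1, 78.0 and 103.1, a log2 change of 0.60 ± 0.15 (adjusted p = 0.0275). Both calls were lost in 7 alternatives, for Kif17 among them the fits that left out any array but BMP4 replicate 2 or control replicate 1 (adjusted p from 0.0608 to 0.0913). Kif24 was not past the test without any single array other than control replicate 3 (0.0527 to 0.0961), nor with a replicate block (0.0596). Each gene has a second tested probe set that was kept through its BMP4 signals, at log2 values of 0.28 for Kif24 and 0.82 for Kif17 (adjusted p = 0.683 and 0.358).

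The conventional kinesin-1 heavy chain Kif5b, which with light chains hauls many organelles, was measured by 6 tested probe sets and none passed in the main fit. The brightest read 611.0, 651.3 and 593.3 with BMP4 and 759.2, 631.3 and 726.7 without, a log2 value of -0.18 (95% interval -0.36 to 0.00, limma adjusted p = 0.209). Of its probe sets 5 were negative, from -0.38 (adjusted p = 0.0693) to -0.10, and the dimmest, kept through its BMP4 signals, gave 0.14. The probe set at -0.38 did pass with the filter at the 60th percentile (limma adjusted p = 0.0476) and without BMP4 replicate 3 (0.0250). The neuronal kinesin-1 genes Kif5a and Kif5c were under background, apart from 1 Kif5a probe set of the s_at kind at 53.9 ± 18.9 and 39.7 ± 4.76 (SD, n = 3; adjusted p = 0.472). Kif1a, a kinesin-3 of synaptic vesicle transport, was under background on both its probe sets.

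Heterotrimeric kinesin-2, built from Kif3a, Kif3b and the adaptor Kifap3, drives the outward leg of intraflagellar transport in cilia. Kif3a gave -0.19 to 0.06 on 4 probe sets and Kif3b -0.03 to 0.25 on 4, none past the test, with adjusted p from 0.292 to 0.897. Kif3c, which pairs with Kif3a, gave 0.24 (adjusted p = 0.205) on the bright probe set and -0.15 on the dim one. Kifap3, whose symbol is outside the rule, read 642.3, 632.6 and 635.4 with BMP4 and 800.2, 740.3 and 788.6 without, a fall of -0.28 ± 0.06 (SE, limma adjusted p = 0.0194), and its dimmer probe set gave -0.55 (adjusted p = 0.0499). The brighter Kifap3 call was lost without the intensity trend (adjusted p = 0.109) and when any array but BMP4 replicate 1 or control replicate 2 was left out (0.0515 to 0.0666). The dimmer call was lost when any array but BMP4 replicate 2 was left out (0.0542 to 0.184). It was also lost with a pseudocount of 1 (0.0546), no filter (0.113), quantile normalization (0.0511), no intensity trend (0.129) and array weights (0.0581).

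Kinesin-3 transporters other than Kif13b did not pass in the main fit. Kif1b, of mitochondrial and vesicle transport, ranged from -0.15 to 0.16 over 7 probe sets. Kif1c, of vesicle and integrin transport, ranged from -0.09 to 0.06 over 4, and Kif13a, of endosome transport, from -0.12 to 0.11 over 5. Kif16b, which moves early endosomes, gave -0.24 (limma adjusted p = 0.0790) on its brightest probe set, where the groups did not overlap, -0.16 on another and 0.28 on the dimmest. The brightest Kif16b probe set did pass with arrays centred on their median (limma adjusted p = 0.0348).

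The remaining families held few members. Kif2a, which shortens microtubules at spindle poles and in neurons, gave -0.14 to 0.09 over 4 tested probe sets, in contrast to the values of Kif2c in the same family (0.66 on its brightest probe set). This difference between genes was not tested. Kif7, a ciliary tip protein of Hedgehog signalling, gave 0.03 (95% interval -0.29 to 0.34, limma adjusted p = 0.938). Kif21b gave 0.13. Kif26b, of the kinesin-11 group that lacks ATPase activity, read 75.3, 53.6 and 79.0 against 48.8, 42.0 and 32.6, a log2 value of 0.57 (adjusted p = 0.0827). Its groups did not overlap, but it did not pass. Kif6 and Kif9, of motile cilia, gave 0.07 (adjusted p = 0.891) and 0.43 (adjusted p = 0.203), and Kif12 gave -0.20 with an interval of -0.99 to 0.60. Kif2b, Kif26a, Kif27 and Kif28 were under background on every array and were not tested.

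**Figure D4:**
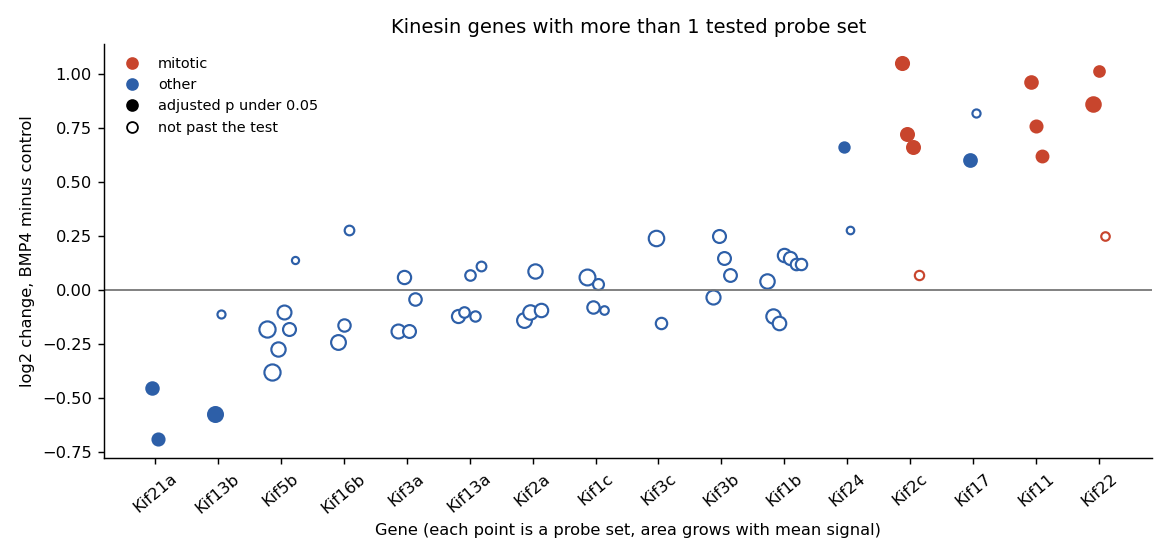
Log2 change of each tested probe set (points, area growing with mean signal) for kinesin genes with more than 1, ordered by the median, filled where the limma adjusted p was under 0.05. All 3 Kif11 probe sets are filled, and the open points of Kif2c (0.07) and Kif22 (0.25) are the dimmest of their genes.

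Genes that work with the mitotic kinesins moved with them. Of 9 chromosomal passenger and central spindle genes 8 were higher and 0 lower (limma adjusted p under 0.05), with a median log2 change of 0.81, against 5.03% higher and 5.66% lower among all 12966 genes and a median of 0.03. Racgap1, the partner of Kif23, averaged 371 ± 21.2 with BMP4 and 201 ± 10.0 without (SD, n = 3), log2 0.83 ± 0.08 (SE; limma, adjusted p = 8.60e-05). Prc1, the microtubule bundler that Kif4 and Kif14 bind, rose by 0.83 and the passenger complex genes Cdca8, Birc5 and Aurkb by 1.01, 0.85 and 0.81. Anln, a scaffold of the contractile ring, rose by 0.78. Other kept probe sets gave 0.70 for Racgap1, 0.77 for Prc1, 0.71 and 1.49 for Cdca8 and 0.48 for Aurkb. The kinase gene Cit gave 0.10 (adjusted p = 0.575) on its brightest probe set and 1.37 on another.

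Of 21 spindle assembly and kinetochore genes 14 were higher and 0 lower, with a median of 0.76 (at an unadjusted limma p under 0.05, 16 and 1). Among all 12966 genes 5.03% were higher and 5.66% lower at an adjusted p under 0.05. The list holds the kinesin motors Cenpe, which is one of the 14, and Kifc1, which is not, since their symbols are outside the rule. By brightest probe set, the kinase Plk1 rose by 1.21, the spindle protein Hmmr by 1.09 and the checkpoint kinase Bub1 by 1.08. The kinetochore genes Spc25, Nuf2 and Kntc1 rose by 1.07, 0.99 and 0.99. The other kept probe set of Spc25 gave only 0.04, and those of Hmmr gave 0.29 to 0.85. Numa1, which gathers spindle poles, gave -0.21 (adjusted p = 0.0984). Of 10 genes of mitotic entry and proliferation 7 were higher and 0 lower, with a median of 0.73, among them Cdc20 (1.08), Cdk1 (0.90), Ccna2 (0.88) and Top2a (0.47). The cyclin gene Ccnb2 averaged 382 ± 28.9 with BMP4 and 182 ± 17.7 without, and the proliferation marker Mki67 412 ± 35.2 and 198 ± 5.65 (SD, n = 3). Foxm1, a transcription factor of mitotic genes, gave 0.24 (adjusted p = 0.251) on its brightest probe set and 0.80 and 0.48 on the others kept.

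DNA replication genes, which act before mitosis, were also higher in 13 of 14 cases and lower in 0 (limma adjusted p under 0.05), with a median of 0.62. Among all 12966 genes 5.03% were higher and 5.66% lower by that rule. At an unadjusted p under 0.05 there were 14 and 0 in the list. Rrm2, a subunit of ribonucleotide reductase, rose by 1.17, and the cyclin E genes Ccne2 and Ccne1 by 0.89 and 0.67. Mcm5, Cdt1 and Mcm3, of origin licensing, rose by 0.87, 0.68 and 0.66. Other kept probe sets of these genes gave 0.40 (Mcm3 and Mcm5) to 1.04 (Rrm2).

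Partners of the transport kinesins were called about as often as all genes. Of 22 genes, mostly adaptors, light chains and dynein and dynactin subunits, with the minus-end directed kinesins Kifc2 and Kifc3 among them, 1 was higher (Trak1, 0.30, adjusted p = 0.0486) and 2 were lower (Kifap3 and the dynein intermediate chain Dync1i1, -0.64, limma adjusted p = 0.0450), with a median of 0.02. These counts are near the 5.03% higher and 5.66% lower of all genes. At an unadjusted p under 0.05 there were 3 and 3, with no share of all genes at that threshold to compare. The count of higher genes fell to 0 when any single array was left out, and that of lower genes to 0 or 1, with 0 when BMP4 replicate 2 or 3 or control replicate 3 was dropped. The other kept probe sets of Trak1 gave only 0.03 to 0.10. The light chains Klc1 and Klc4 gave -0.07 and 0.02. Of 12 intraflagellar transport genes 0 were higher and 0 lower (limma, also 0 and 0 at an unadjusted p under 0.05), with values from -0.16 (Ift52, adjusted p = 0.294) to 0.16. Of 5 tested Hedgehog genes linked to Kif7 0 were higher and 1 lower, Gli3 (-0.22, adjusted p = 0.0482), which was not called when any single array was left out. At an unadjusted p under 0.05, 2 were lower.

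**Figure D5:**
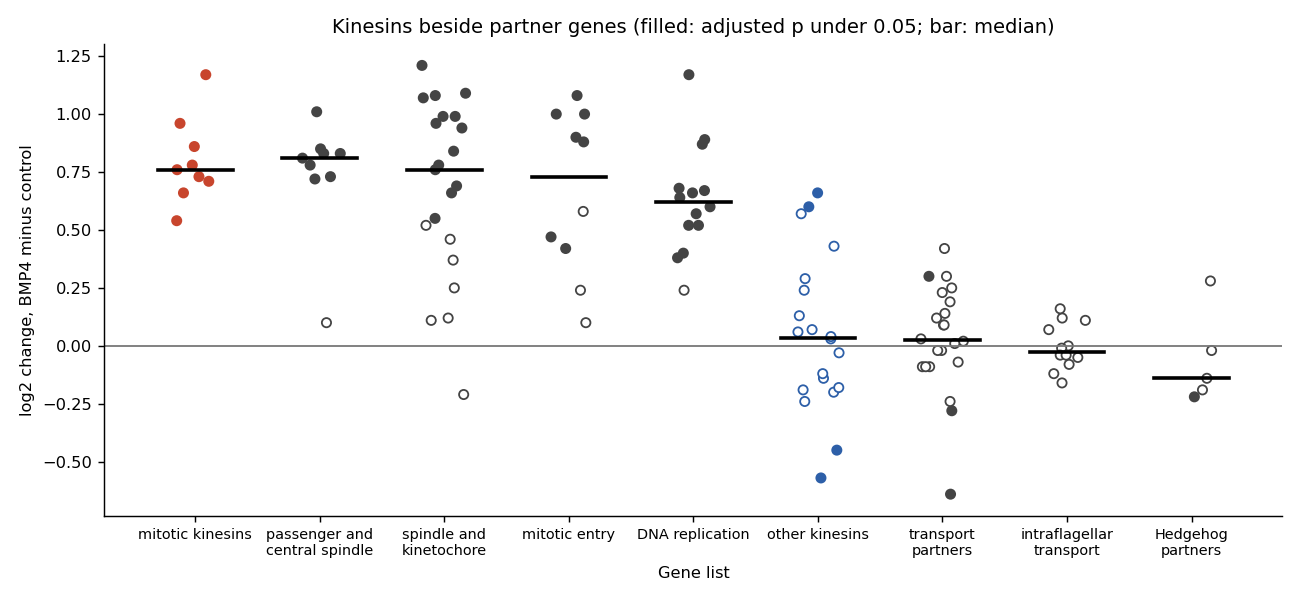
Log2 change of each gene by its brightest tested probe set (points, filled where the limma adjusted p was under 0.05) for the kinesin sets and partner lists, with the median as a bar. The medians of the mitotic kinesins and of the 3 mitotic lists lie between 0.73 and 0.81, and those of the other kinesins and the transport lists lie near 0.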

How the data were processed

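Arrays of biotin-labelled total RNA gave linear intensity values, which the authors computed with GCOS 1.3 according to the submitters' processing notes. No source used here gives the scaling or background settings, or a genome build. Sample titles gave the groups and replicate numbers. After 64 control probe sets were removed, log2(signal + 16) was computed. Probe sets with a mean above the 40th percentile (a signal of 23.5) were kept, which left 27022 of 45037. The test was limma's, version 3.58.1 under R 4.3.3 (lmFit, eBayes with an intensity trend, two-sided, Benjamini-Hochberg over all kept, threshold 0.05). The added 16 makes changes of dim genes look smaller. SE and 95% intervals are limma's, and SD is over 3 arrays. A gene was represented by its brightest kept probe set with 1 symbol. All 37 kinesin genes matched the RefSeq table by identifier, with 0 symbols changed.

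Members, lists, motifs and the rule for named genes were chosen with earlier results of these data known. Named are all mitotic kinesins, other kinesins past the test, the brightest gene of each family without one, and up to 6 called genes per list. Other members and partners are named after their values were seen. The fit was tested on simulated data before use. Alternatives were other pseudocounts, filters, normalizations and eBayes settings, array weights, a replicate block, and each array left out. Same-numbered arrays of the 2 groups did not deviate together (correlations of 0.01, 0.00 and -0.07), so no pairing was assumed.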

Additional observations from a re-analysis of the deposited data

How the results depend on the processing

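The 14 higher mitotic kinesin probe sets numbered 12 to 14 under other pseudocounts, filters, normalizations and eBayes settings, 13 with array weights, 13 with a replicate block and 10 to 14 when 1 array was left out, and 0 were lower in each. Without s_at and x_at probe sets, an alternative chosen after seeing the data, 11 were higher, and Kif22 was no longer among the genes called. The median of the mitotic kinesin probe sets, 0.74, was 0.54 with a pseudocount of 64, which by construction shrinks changes of dim genes. The 16 higher kinesin probe sets in all became 10 to 15 when 1 array was left out, the lowest without control replicate 2, and 14 with a replicate block. The 3 lower ones ranged from 2 to 4, and the 29 higher mitotic partner genes from 26 to 29.

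The 2 higher probe sets of other kinesins were 0 without the filter, 1 with a filter at the 60th percentile, 1 with arrays centred on their median, 1 without the intensity trend, 1 with a replicate block and 0 to 1 when 1 array was left out. The median of the other kinesins, 0.00, was -0.08 with the filter at the 60th percentile and -0.10 with median centring, which lowers the median of all probe sets from 0.03 to -0.07. The causes of the other moves were not tested. Over all probe sets 2464 passed, against 1422 without the intensity trend and 1622 to 1996 with 1 array left out, the lowest without control replicate 2. With median centring 25.1% of calls were higher, against 46.1%. The pairing was not borne out by the arrays, and the block gave 2090 calls in all. No kinesin call reversed. Dim probe sets, such as all those of Kif14 and Kif15, set the limit of what could be tested.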

Other observations

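Kinesins and a kinesin-binding protein whose symbols fall outside the rule are counted among the partner genes above, and their own values follow. The kinetochore motor Cenpe, a kinesin-7, averaged 100.3 ± 16.2 with BMP4 and 52.6 ± 6.24 without (SD, n = 3), log2 0.76 ± 0.15 (SE; limma, adjusted p = 0.0103), and its second probe set also gave 0.76 (adjusted p = 0.0124). The minus-end directed spindle motor Kifc1, measured by 1 probe set of the s_at kind, gave 0.46 (adjusted p = 0.273), with means of 51.0 with BMP4 and 34.0 without. Kifc3 and Kifc2, also of the minus-end directed group, gave 0.25 (adjusted p = 0.298) and 0.42 (adjusted p = 0.193). The kinesin binding protein gene Kifbp gave -0.09 on its brightest probe set (adjusted p = 0.611) and -0.01 on another.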
